A study of Homo sapiens with 5 samples.

Results

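Histone marks of regulatory regions on chromosome 20 were mapped in the prostate cancer cell line VCaP (human, androgen-responsive) by chromatin immunoprecipitation with sequencing (ChIP-seq) against 2 histone marks, monomethylation of histone H3 at lysine 4 (H3K4me1) and acetylation at lysine 27 (H3K27ac). There were 2 libraries per mark, and 1 input library in the labels was not used here. The labels name no treatment for any group, and the groups are labelled as VCaP cells with a different antibody each (abcam ab8895 for H3K4me1 and abcam ab4729 for H3K27ac), and no label says whether replicates came from separate cultures. The members were chosen by the positions of the called peaks, as all deposited peaks on chromosome 20 of the human genome build hg19. They were split at the centromeric gap into a long arm (starts above position 29400000) and a short arm (starts below 26400000), and peaks starting from 56150000 to 56400000 were left out. Over the 4 lists this gave 10636 of the 356527 peaks on the autosomes, 6419 on the long arm and 4217 on the short arm.

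H3K4me1 marks enhancers, whether active or poised, and the flanks of promoters, while H3K27ac marks enhancers and promoters that are active, so an H3K27ac region inside H3K4me1 is the usual picture of an active enhancer. Chromosome 20 is a small chromosome whose arms differ in content. The long arm carries the proto-oncogene SRC, the steroid receptor coactivator NCOA3, the mitotic kinase AURKA, the transcription factor genes E2F1, MYBL2 and ZNF217, and the imprinted GNAS locus. The short arm carries the Notch ligand JAG1, the replication clamp PCNA, the growth factor BMP2 and the endoderm factor FOXA2. The lists hold no gene names and the gene table at hand belongs to another build (GRCh38), so no peak was assigned to a gene, the cell type was not checked against marker genes, and regions are named by hg19 position.

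The chromosome was singled out with its high overlap of the marks already known, so its values against other autosomes are a description without a test. The lists hold positions only, so sequencing depth is unknown, and 95% intervals of shares (exact, Clopper-Pearson) cover counting error over regions only. Neighbouring regions are not independent replicates. The 4 lists differed in their smallest peak width, from 172 to 232 bp.

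No peak of any list started inside the gap. The last short-arm peaks began at 26167924 and 26167947 in H3K4me1 replicates 1 and 2 and at 25973031 and 25973046 in H3K27ac replicates 1 and 2. The first long-arm peaks began at 30103358 and 29633058 in the H3K4me1 libraries and at 29611325 and 29611350 in the H3K27ac libraries, with widths of 1082, 237, 1801 and 1701 bp. Around the left-out interval, the nearest retained H3K4me1 peaks began at 56107517 and 56073485 before it in replicates 1 and 2, and at 56496764 and 56497052 after it. The nearest retained H3K27ac peaks began at 56014578 and 56014701 before it and at 56497333 and 56497616 after it.

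Both marks were denser on the long arm than on the short arm in every library. H3K4me1 replicates 1 and 2 had 65.5 and 65.4 peaks per Mb on the long arm, against 56.0 and 57.9 on the short arm. H3K27ac replicates 1 and 2 had 29.1 and 34.0 peaks per Mb on the long arm, against 21.8 and 26.5 on the short arm. The H3K4me1 values of the arms did not overlap, and the lower long-arm H3K27ac value lay above the higher short-arm value. The lengths behind these densities ran from the outermost peaks of each arm, 33.1 Mb for the long and 26.0 Mb for the short arm.

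Long over short, the density ratio averaged 1.15 ± 0.0280 for H3K4me1 and 1.31 ± 0.0365 for H3K27ac (mean ± SD, n = 2 each). Over all 4 libraries the mean log2 ratio was 0.29 ± 0.11 (SD, n = 4), higher on the long arm in 4 of 4 libraries. Libraries of both marks enter that SD, so it includes the difference between the marks. An exact two-sided sign-flip permutation test gave p = 0.13, the smallest that 4 libraries allow, and 0.5 after Benjamini-Hochberg adjustment over 4 tests. Within a mark, its 2 libraries allow no sign-flip p below 0.5. The ratio was higher for H3K27ac than for H3K4me1 in both libraries. The difference of the mean log2 ratios, H3K4me1 minus H3K27ac, was -0.19, with an exact two-sided permutation p of 0.33, the smallest that 2 against 2 libraries allow, and 0.667 after adjustment.

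Set beside the other autosomes, the long arm of chromosome 20 was among the densest arms. Of 39 autosome arms (the short arms of 5 acrocentric chromosomes were not used), it ranked 2 in both H3K4me1 libraries, and 5 and 6 in H3K27ac replicates 1 and 2. Its H3K4me1 density stood at 1.53 and 1.43 times the median of the 37 other arms, and its H3K27ac density at 1.503 and 1.485 times. The short arm ranked 7 for H3K4me1 and 14 for H3K27ac in both libraries of each mark, at 1.31 and 1.27 times and at 1.13 and 1.16 times the median. The imbalance between arms was common in kind, since long-over-short density ratios on the 16 other autosomes with both arms ran from 0.590 to 1.63 in H3K27ac replicate 1. Chromosome 20 ranked 2 of 17 in both H3K27ac libraries, below chromosome 9, and 6 of 17 in both H3K4me1 libraries.

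**Figure D1:**
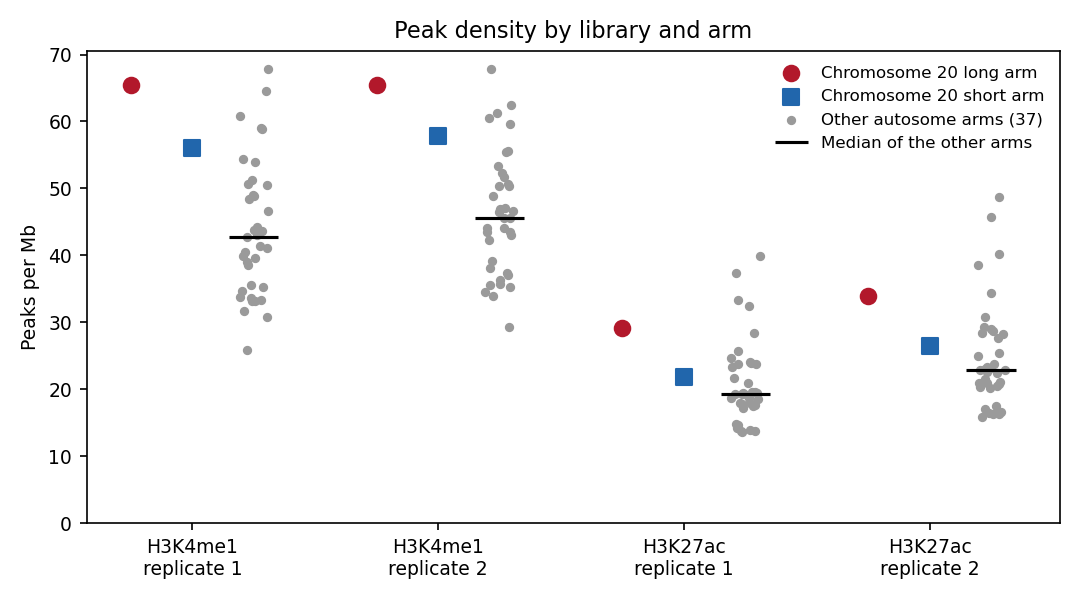
Peaks per Mb (vertical axis) in each of the 4 libraries, with the chromosome 20 long arm (circle), its short arm (square), the 37 other autosome arms (small grey points) and their median (line). In every library the long arm lies above the short arm, and both lie above the median of the other arms.

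H3K27ac peaks of the short arm were sparsest in its middle part. With each arm cut into 3 parts of equal length, the middle part of the short arm had 13.7 and 15.8 H3K27ac peaks per Mb in replicates 1 and 2. The outer part of the short arm had 24.2 and 30.3, and the part next to the centromere 27.5 and 33.3. The 3 long-arm parts, from the centromere outward, had H3K27ac densities of 31.5, 28.3 and 27.4 per Mb in replicate 1, and of 37.1, 32.4 and 32.5 per Mb in replicate 2. Both libraries thus placed the middle of the short arm below every other part. H3K4me1 was also lowest there, but by less, with 48.2 and 52.4 peaks per Mb in replicates 1 and 2, against 52.4 and 55.1 in the outer part and 67.4 and 66.1 next to the centromere. Next to the centromere, the short arm was as dense in H3K4me1 as the long arm, which had 67.3 and 65.9 there.

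In the middle part of the short arm, fewer H3K4me1 regions carried H3K27ac than in its other parts. For this and what follows, overlapping peaks of a mark's 2 libraries (at least 1 bp shared) were fused, and fused regions holding a peak of each library are called replicated regions. There, 35.4% of 319 H3K4me1 regions (30.2 to 40.9%) overlapped H3K27ac, against 54.3% of 339 in its outer part and 48.4% of 426 next to the centromere. Of 105 H3K27ac regions in that middle part, 89.5% (82.0 to 94.7%) still overlapped H3K4me1. Single windows of the middle part did not all follow. The share was 55% (11 of 20) at 12000001 to 13000000 but 16.7% (4 of 24) at 15000001 to 16000000, both sparse in H3K27ac. The sparse window at 7000001 to 8000000, in the outer part, had 54.5% (6 of 11). On the long arm the H3K4me1 share varied less by part, with 53.5, 47.8 and 49.8% from the centromere outward.

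Windows of 1 Mb also showed sparse places outside the middle of the short arm. The long arm held a median of 46.5 H3K4me1 and 28.5 H3K27ac regions per window over 32 windows, and the short arm 41.5 and 19.5 over 26 windows. The fullest H3K4me1 window of the long arm, at 61000001 to 62000000, held 78 regions, and that of the short arm, at 20000001 to 21000000, held 67. The fullest H3K27ac windows lay close to the gap on both sides. The long-arm window at 33000001 to 34000000 held 50 H3K27ac regions (55 and 62 peaks in replicates 1 and 2), and the short-arm window at 25000001 to 26000000 held 42 (46 and 58 peaks).

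The emptiest windows differed between marks on the long arm and coincided on the short arm. The fewest H3K27ac regions of the long arm, 5, were at 38000001 to 39000000, where 33 H3K4me1 regions remained. The fewest H3K4me1 regions, 20, were at 53000001 to 54000000, with 7 of H3K27ac. On the short arm, 7000001 to 8000000, in the outer part, was lowest in both marks, with 11 H3K4me1 and 4 H3K27ac regions. Its neighbour at 6000001 to 7000000 held 13 and 6. All 4 libraries were low in the lowest window, with 15 and 16 H3K4me1 peaks and 5 and 7 H3K27ac peaks. One other short-arm window, at 15000001 to 16000000, also held 4 H3K27ac regions, beside 24 of H3K4me1. Region counts of both marks went together along the windows, with a Spearman's rho of 0.93 on the long arm (32 windows) and 0.84 on the short arm (26 windows). These windows are neighbours on 1 chromosome and share the same 4 libraries.

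**Figure D2:**
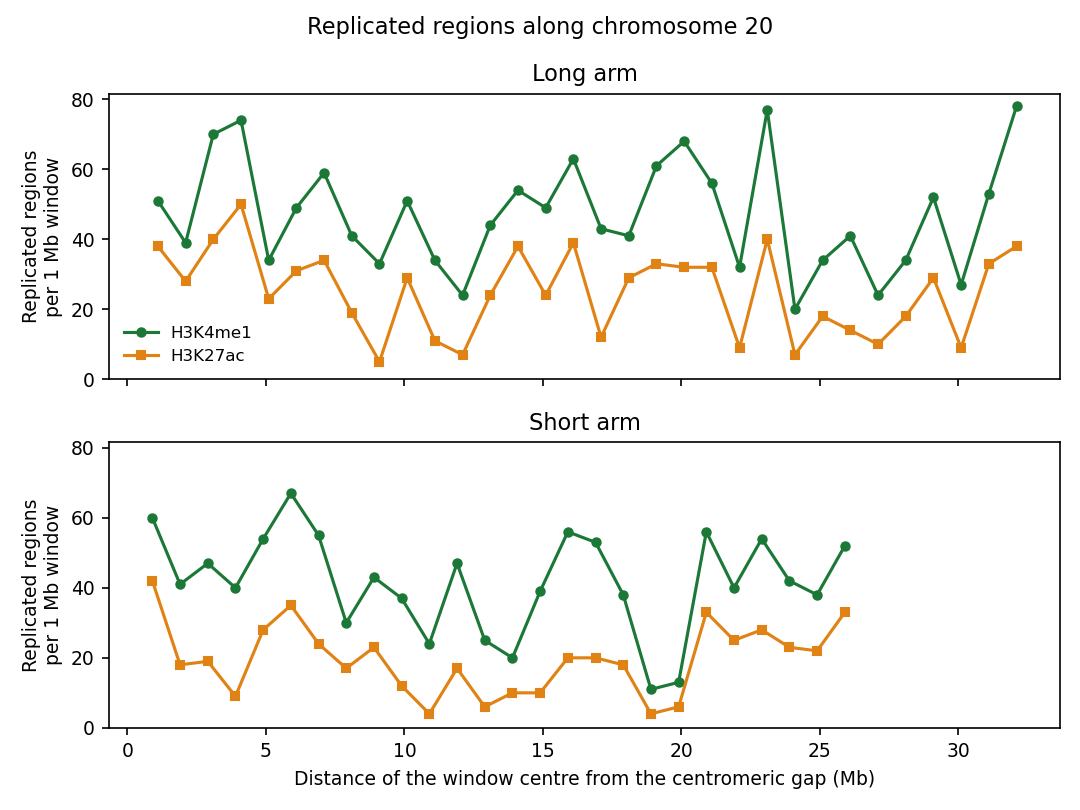
Replicated regions per 1 Mb window (vertical axis) against the distance of the window's centre from the centromeric gap in Mb (horizontal axis), for H3K4me1 (circles) and H3K27ac (squares), the long arm above and the short arm below. The short arm shows its lowest counts of both marks, 11 and 4 regions, at 18.9 Mb from the gap. The long-arm window at 27.1 Mb lacks the peaks of the left-out interval.

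Peak width, unlike density, showed no direction shared by the H3K27ac libraries in the lists as deposited. H3K4me1 peaks of replicates 1 and 2 had median widths of 506 and 741 bp on the long arm, against 501 and 727 bp on the short arm. H3K27ac peaks had medians of 889 and 651 bp on the long arm, against 1092 and 630 bp on the short arm. Replicate 1 alone thus gave narrower H3K27ac peaks on the long arm, with a ratio of 0.814, while replicate 2 gave 1.03. The mean log2 width ratio over 4 libraries was -0.05 ± 0.16 (SD, n = 4; exact two-sided sign-flip permutation p = 1, adjusted 1), a difference smaller than the spread between libraries. With all lists brought to a common minimum width and joining distance, the H3K27ac medians were 920 and 933.5 bp on the long arm, against 1170 and 994 bp on the short arm, both narrower on the long arm. With equal numbers of the widest peaks from each list they again differed in direction, with 889 and 830.5 bp on the long arm, against 1092 and 809 bp on the short arm.

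The surplus of H3K27ac peaks on the long arm was larger among peaks under 2 kb than among wider ones. Peaks under 2 kb had 22.7 and 28.5 per Mb on the long arm in H3K27ac replicates 1 and 2, against 16 and 21.7 on the short arm, ratios of 1.42 and 1.31. Peaks of 2 kb or wider had 6.37 and 5.50 per Mb on the long arm, against 5.81 and 4.81 on the short arm, ratios of 1.098 and 1.144. H3K4me1 peaks under 2 kb had ratios of 1.18 and 1.13. H3K4me1 peaks of 2 kb or wider had 0.847 in replicate 1 (69 against 64 peaks) and 1.11 in replicate 2 (224 against 158), so that the libraries differed in direction.

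Replicated H3K27ac regions had a smaller median width on the long arm, and the H3K4me1 medians were close. H3K4me1 gave 2666 replicated regions of 3939 merged ones on the chromosome, 1582 on the long arm (median 1012 bp) and 1084 on the short arm (median 994 bp). H3K27ac gave 1360 of 1731, 854 on the long arm (median 1213.5 bp) and 506 on the short arm (median 1360 bp). Regions of 5 kb or wider made up 0.506% of long-arm and 1.11% of short-arm H3K4me1 regions (8 and 12 regions), and 1.64% of long-arm and 3.36% of short-arm H3K27ac regions (14 and 17). On other autosomes those shares were 0.556% for H3K4me1 and 2.45% for H3K27ac, and the medians were 946 and 1221 bp. H3K4me1 regions covered 6.07% of the long arm and 5.35% of the short arm, against 3.64% of the other autosomes. H3K27ac regions covered 4.02% of the long arm and 3.26% of the short arm, against 2.71% of the other autosomes.

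**Figure D3:**
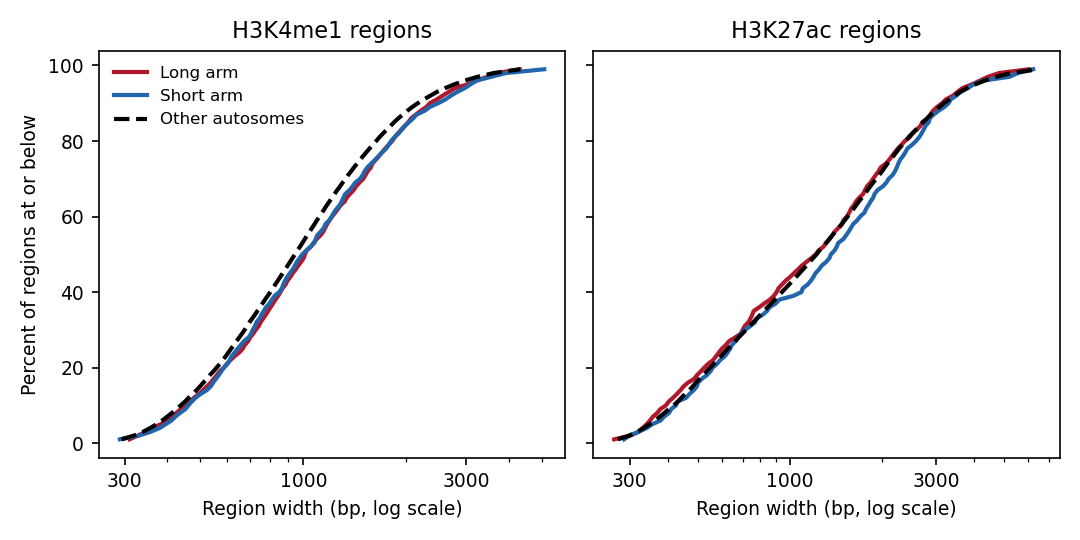
Cumulative percentage of replicated regions (vertical axis) by width in bp on a log scale (horizontal axis), H3K4me1 on the left and H3K27ac on the right, for the long arm, the short arm and the other autosomes (dashed). Over most of their range the H3K4me1 curves of both arms run together to the right of the other autosomes (medians 1012, 994 and 946 bp), and the H3K27ac curves cross, with the short-arm curve to the right of the other two around the middle (medians 1213.5 bp for the long arm, 1360 bp for the short arm and 1221 bp for other autosomes).

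Peaks recurred between replicates to a similar extent on both arms. Of H3K4me1 peaks, 91.2 and 74.7% of replicates 1 and 2 on the long arm overlapped a peak of the other library, against 91.6 and 72.7% on the short arm. Of H3K27ac peaks, 90.0 and 88.0% did so on the long arm, against 90.3 and 87.7% on the short arm. The mean difference, long minus short, was 0.422 ± 1.09 percentage points (SD, n = 4; exact two-sided sign-flip permutation p = 0.75, adjusted 1). Chromosome 20 as a whole ranked 2 and 1 of 22 autosomes in H3K4me1 replicates 1 and 2, and 5 and 2 in H3K27ac replicates 1 and 2. Its H3K4me1 shares were 91.3 and 73.9%, against medians of 88.5 and 68.5% over the other autosomes. Its H3K27ac shares were 90.1 and 87.9%, against medians of 87.7 and 86.1%.

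H3K27ac regions lacking a replicated H3K4me1 region were uncommon on chromosome 20, and more so on the short arm. Of long-arm H3K27ac regions, 704 of 854 overlapped a replicated H3K4me1 region, or 82.4% (79.7 to 84.9%), and of short-arm regions 449 of 506, or 88.7% (85.7 to 91.4%). Over all autosomes the share was 74.3%. Since the chromosome was chosen with its high share known, nothing is read from that gap. The long-minus-short difference was -6.30 percentage points (95% Newcombe interval -9.95 to -2.41, counting error over regions only). Over the 16 other autosomes with both arms it ran from -13.1 to 23.7 points with a median of 2.23, and was negative on 7. From the lowest, chromosome 20 ranked 3 of 17. Its arm difference was -3.25 points without H3K4me1 replicate 1, -3.27 without H3K27ac replicate 1 and -2.11 with all merged regions, replicated or not. Without a library, every peak of the mark's remaining library was used, so the need for replication was dropped as well. All 4 pairs of libraries had the same sign, with smaller differences of -5.26 to -2.23 points, but the pairs share libraries and are not independent. H3K27ac replicate 1 had 81.5 and 87.3% of its long-arm peaks on peaks of H3K4me1 replicates 1 and 2, against 86.8 and 90.5% of its short-arm peaks. H3K27ac replicate 2 had 80.4 and 86.7% on the long arm, against 82.6 and 89.3% on the short arm.

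The arms also differed by the density of each class. H3K27ac regions with H3K4me1 numbered 21.3 per Mb on the long arm and 17.3 on the short arm, a ratio of 1.23. H3K27ac regions without it numbered 4.53 per Mb on the long arm (150 regions) and 2.19 on the short arm (57 regions), a ratio of 2.07. These overlapped no replicated H3K4me1 region, but some overlapped a peak of a single H3K4me1 library. Any H3K4me1 peak, replicated or not, was overlapped by 89.7% of long-arm and 92.5% of short-arm H3K27ac regions. In single pairs of libraries the ratio for peaks without H3K4me1 ran from 1.45 to 1.86 and that for peaks with it from 1.25 to 1.29. Over the 16 other autosomes with both arms, the ratio for regions without H3K4me1 ran from 0.326 to 2.02 with a median of 0.844. The value of chromosome 20 was the highest of the 17 and close to the next. Its ratio for regions with H3K4me1 ranked 6 of 17.

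The reverse overlap was close to that of the genome. Of long-arm H3K4me1 regions, 797 of 1582 overlapped H3K27ac, or 50.4% (47.9 to 52.9%), and of short-arm regions 503 of 1084, or 46.4% (43.4 to 49.4%), beside 47.0% over all autosomes. Long minus short was 3.98 percentage points (0.115 to 7.82). Over the 16 other autosomes with both arms it ran from -9.33 to 4.71 points, and chromosome 20 ranked 16 of 17 from the lowest. On chromosome 20, pairs of libraries gave differences from 1.58 to 5.16 points. Without H3K4me1 replicate 2, with every peak of replicate 1 used whether replicated or not, the difference was 1.03 points. With equal numbers of the widest peaks from each list it was -0.245 points. H3K4me1 regions outnumbered H3K27ac regions by 1.85 on the long arm and 2.14 on the short arm, ranks 23 and 6 of 39 arms.

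Across the 39 arms, the share of H3K27ac regions with H3K4me1 went with the length covered by H3K4me1, with a Spearman's rho of 0.60 and a Pearson's r of 0.65. All points come from the same 4 libraries. On these measures the chromosome 20 arms stood in opposite order. The long arm had more H3K4me1 coverage (rank 3 of 39) and the lower share (rank 6), and the short arm had less coverage (rank 6) and the higher share (rank 2, below the long arm of chromosome 21 with 90.1%). The share went more closely with the number of H3K4me1 regions per H3K27ac region (rho 0.74, r 0.84 over the same 39 arms), and there the arms stood in the same order, at 1.85 on the long and 2.14 on the short arm. That ratio and the share use the same regions.

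**Figure D4:**
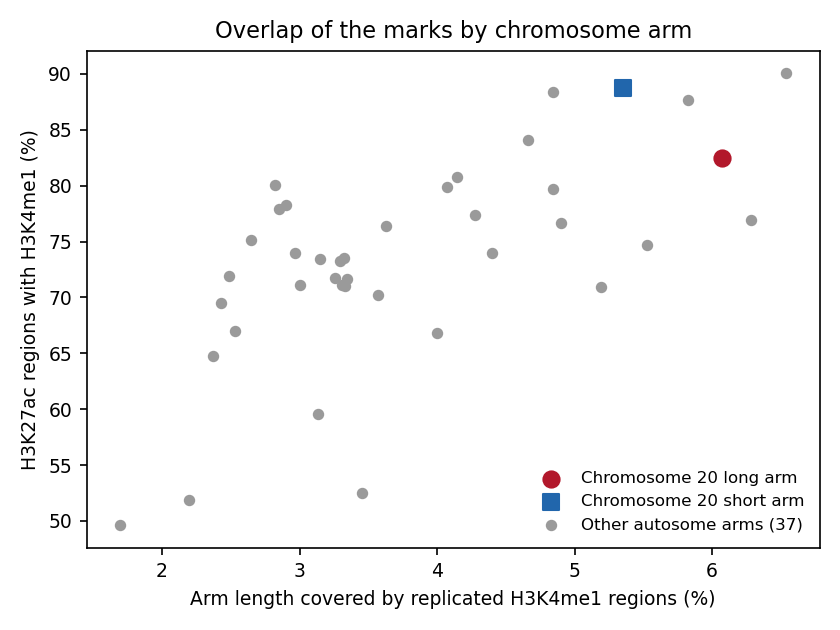
Percentage of replicated H3K27ac regions that overlap a replicated H3K4me1 region (vertical axis) against the percentage of arm length covered by H3K4me1 (horizontal axis), for the long arm (circle) and short arm (square) of chromosome 20 and 37 other autosome arms (grey). The long arm stands at 6.07% coverage and an 82.4% share, the short arm at 5.35% and 88.7%.

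The gap between the arms in the H3K27ac share was widest in the narrowest 2 of 5 width classes. With the classes set over all autosomes, from narrowest to widest, 77.6, 76.1, 79.7, 88.0 and 91.2% of long-arm H3K27ac regions overlapped H3K4me1, against 87.5, 84.7, 83.1, 88.8 and 97.4% of short-arm regions. The exact intervals of the arms overlapped in every class. Both arms lay above the other autosomes in each class, which had 68.3, 69.9, 71.7, 75.1 and 85.0%. The high share over all classes was known when the chromosome was chosen, so nothing is read from that contrast. For H3K4me1 regions with H3K27ac the classes gave 32.5, 32.4, 44.4, 54.9 and 77.2% on the long arm, against 26.1, 28.6, 40.4, 50 and 77.0% on the short arm. The other autosomes had 28.3, 36.8, 42.7, 51.2 and 76.2%.

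**Figure D5:**
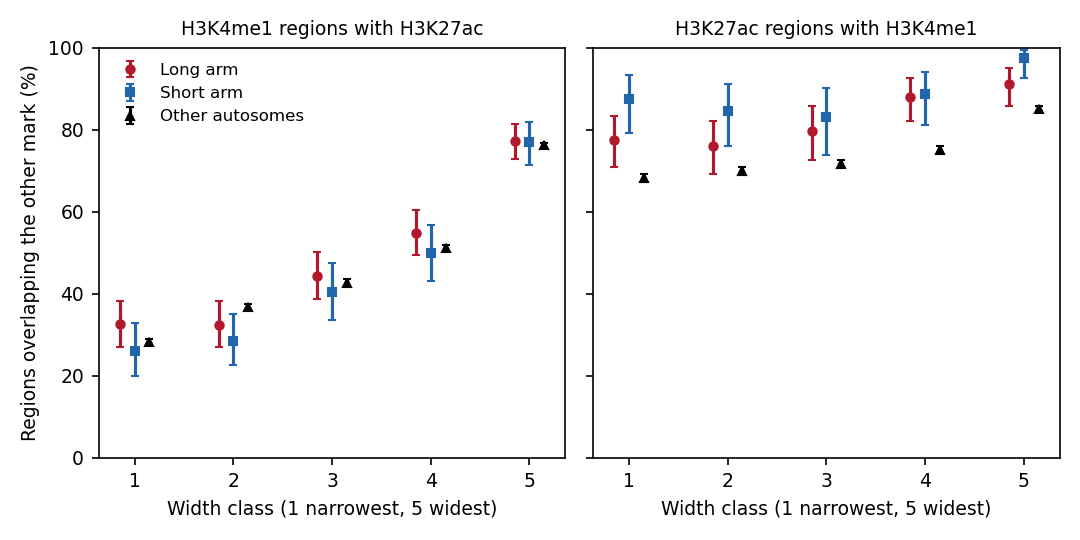
Percentage of replicated regions overlapping the other mark (vertical axis) in 5 width classes (horizontal axis, 1 narrowest, 5 widest), H3K4me1 regions on the left and H3K27ac regions on the right, with exact 95% intervals. For H3K27ac both arms lie above the other autosomes in all classes, for example 91.2 and 97.4% on the long and short arm against 85.0% in the widest class. The chromosome was chosen with its high H3K27ac share known.

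Within wide H3K27ac regions (the upper 2 width classes), H3K4me1 was more frequent near the ends than in the middle on both arms. It covered the middle of 43.0% of 337 long-arm regions and 50.2% of 223 short-arm regions, against 37.3% on other autosomes. The position at 0.75 of the way from the middle to the end was covered in 64.5% on the long arm and 68.2% on the short arm, against 56.8% on other autosomes. H3K4me1 at the middle and both outer positions was seen in 34.7% of long-arm and 42.2% of short-arm regions, and H3K4me1 at none of them in 18.1 and 15.7%. On other autosomes those shares were 29.8 and 28.6%. These shares count all wide H3K27ac regions, so their contrast with other autosomes depends on the overlap share known when the chromosome was chosen. The middle share over the outer share was 0.667 on the long arm and 0.737 on the short arm, against 0.656 on other autosomes.

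Most H3K27ac regions without overlap lay within 10 kb of H3K4me1, on chromosome 20 as on other autosomes. The 150 such regions of the long arm had a median distance of 3046 bp to the nearest H3K4me1 region, and 47 lay more than 10 kb away. The 57 such regions of the short arm had a median distance of 6623 bp, and 23 lay more than 10 kb away. Those beyond 10 kb made up 31.3 and 40.4% of such regions on the long and short arm. On other autosomes they made up 44.1%, and the median distance was 7579 bp. As a share of all H3K27ac regions, those beyond 10 kb made up 5.50% on the long arm and 4.55% on the short arm, against 11.5% on other autosomes. That contrast depends on the share without overlap, which was known when the chromosome was chosen. H3K27ac regions without overlap were narrower than those with it, with medians of 830.5 and 1329 bp on the long arm and 1092 and 1404 bp on the short arm.

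H3K27ac regions formed more domains per Mb on the long arm, with a similar median amount of H3K27ac in each. Joining regions at most 12500 bp apart gave 478 domains on the long arm (14.4 per Mb) and 292 on the short arm (11.2 per Mb), against 9.91 per Mb on the other autosomes. Single regions made up 56.5% of long-arm and 60.3% of short-arm domains. The median domain held 1.94 kb of H3K27ac on the long arm and 2.02 kb on the short arm. Domains with at least 10 kb of H3K27ac numbered 14 and 10, or 0.423 and 0.385 per Mb, against 0.299 per Mb on the other autosomes.

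The largest domain of the chromosome lay on the short arm. It ran from 24972424 to 25047228, next to the centromere, with 12 regions and 27.5 kb of H3K27ac, rank 36 of 26691 autosomal domains. Its H3K27ac measured 26.6 and 25.2 kb in replicates 1 and 2 and its H3K4me1 26.3 and 32.8 kb. The short-arm domain from 9047910 to 9105444 held 25.04 kb in 9 regions, and that from 326873 to 363294 held 19.1 kb in 5 regions. The top long-arm domain ran from 32231816 to 32277672 with 7 regions and 23.2 kb of H3K27ac, rank 71, measured as 22.5 and 21.9 kb in replicates 1 and 2. It was followed by 58499217 to 58537478 (21.8 kb, 12 regions) and 52462083 to 52489549 (20.3 kb, 8 regions). H3K4me1 covered 44.7, 56.5 and 65.3% of the span of the 3 long-arm domains, against 44.6, 37.9 and 39.95% for the 3 short-arm domains. Every one of these 6 domains, picked for their size, carried H3K4me1 in both libraries. Of all autosomal domains 77.3% carried H3K4me1, and of those on the long and short arm 86.0 and 87.7%.

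The widest single regions were largely shared by the marks, and some places appear under both marks below. Wide regions often overlap elsewhere too. In the widest of the 5 width classes, 85.0% of H3K27ac and 76.2% of H3K4me1 regions of other autosomes overlapped the other mark. On the long arm the widest H3K27ac region, 45979277 to 45991104 (11828 bp), was 1 peak in each H3K27ac library (11828 and 11600 bp), with H3K4me1 over 63.8% of it. The next were 42636495 to 42648204 (11710 bp, 88.8% with H3K4me1) and 32231816 to 32242653 (10838 bp, 97.2%). The second was split in replicate 2, where the widest peak measured 5801 bp against 11634 bp in replicate 1. On the short arm the widest were 343478 to 354007 (10530 bp, 91.9%), 733367 to 740633 (7267 bp, 89.4%) and 17945696 to 17952858 (7163 bp). The last carried H3K4me1 over only 19.5% of its length.

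The widest H3K4me1 region of the chromosome overlapped that last one at its end. It lay at 17937519 to 17947095 (9577 bp), with H3K27ac over 75.6%, and was 1 peak of 9577 bp in H3K4me1 replicate 2 but 5 peaks of at most 2937 bp in replicate 1. The other short-arm regions, 733670 to 740165 (6496 bp) and 347524 to 353943 (6420 bp), were covered by H3K27ac over their whole length. On the long arm the widest were 43968031 to 43976637 (8607 bp, 76.1% with H3K27ac), 32235684 to 32243173 (7490 bp, 93.1%) and 47297518 to 47304759 (7242 bp, 56.9%). As on the short arm, the first of these was longer in replicate 2 (8607 bp) than in replicate 1 (7276 bp).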

How the data were processed

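ChIP-seq of H3K4me1 and H3K27ac in VCaP cells gave 1 peak list per library, which the authors deposited with 4 columns (chromosome, start, end and peak name). Build hg19 (GRCh37) and the tools Bowtie 1.1.2, MACS2 2.1.0, Trimmomatic 0.33 and bcl2fastq 2.17 are named in the submitters' processing notes. What each tool did, at which threshold and against which control, and how many reads were sequenced, is not given in the sources used here. With no score column, no peak could be weighted by height.

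Positions are printed from 1. Arm length ran from the first to the last peak of any list, less 0.25 Mb for the left-out interval. Arms of other autosomes were set from rounded hg19 centromere gaps written from general knowledge, not from a file, so their arm values are approximate. Libraries were the units of the exact permutation tests, and p-values measure only the spread between these libraries, which may be technical. Interval operations were tested on simulated data. The members, the classes and the comparisons were chosen with earlier results of these data known. Regions were named by rule (per arm, the 3 widest regions of each mark, the 3 top domains, extreme 1 Mb windows and the longest peak-free stretch). Python 3.11.15, numpy 2.4.6, pandas 2.3.3 and scipy 1.17.1 were used.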

Additional observations from a re-analysis of the deposited data

Results flagged for a closer look

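Peaks in the left-out interval of chromosome 20, with starts from 56150000 to 56400000, are used in none of the comparisons above, and enter only where the interval was kept as an alternative. H3K4me1 replicate 1 held 38 of them and replicate 2 held 33. H3K27ac replicate 1 held 15 and replicate 2 held 22. No control list was compared there.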

How the results depend on the processing

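Recomputing the 10 results under other settings gave 90 values, of which 69 were counted as unchanged. For the 4 results with a permutation test, this meant only that the sign was kept. So few libraries allow no p-value small enough for a call, so the call could not change under any setting. The count therefore says nothing about how far the sizes of these 4 results moved. For the other results, unchanged meant the same sign and a difference smaller than an SD. For density this was the SD between the 2 libraries of the mark. For overlap shares it was the SD over 4 pairs of libraries, taken on single-library peaks, and these pairs share libraries. A further 17 differed by more and 4 had the opposite sign, and the cause was not tested. The log2 arm ratio of density (0.29) kept its sign under all of its alternatives, from 0.22 with 100 kb windows holding a peak as length to 0.33 without H3K4me1 replicate 2. The log2 width ratio (-0.052) ran from -0.085 without H3K27ac replicate 2 to 0.030 without H3K27ac replicate 1. For the overlap shares below, leaving out 1 library also dropped the need for replication in its mark. The long-minus-short difference in H3K27ac regions with H3K4me1 (-6.30 points) was -4.23 with all lists brought to 232 bp as minimum width and joining distance and -2.11 with all merged regions, and ran from -6.77 to -3.25 with 1 library left out. That of H3K4me1 regions with H3K27ac (3.98 points) was -0.245 with equal numbers of widest peaks, and ran from 1.03 to 5.17 with 1 library left out. Chromosome 20 minus other autosomes in H3K27ac regions with H3K4me1 (10.8 points) was 13.8 with equal numbers and 6.53 with all merged regions, and ran from 7.81 to 11.7 with 1 library left out. The same for H3K4me1 regions with H3K27ac (1.80 points) was 1.20 with the common width, -0.223 with equal numbers, 1.05 with all merged regions and -0.318 averaged over 5 width classes, and ran from 0.988 to 2.49 with 1 library left out. The density of chromosome 20 over the median autosome (1.33 for H3K4me1 and 1.31 for H3K27ac) was 1.18 and 1.16 with 100 kb windows holding a peak, and 1.44 for H3K4me1 with equal numbers.

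Deviations from the mark means were not shared by libraries of the same number (r = -0.054, 2665 windows of 1 Mb). With a replicate block the difference between marks in the log2 arm ratio was -0.19, the same as without it by construction. The exact permutation p was 0.5, the smallest that 2 pairs allow. With 100 kb windows holding a peak as length this difference is also the same by construction, and both values were counted among the unchanged ones. Stricter peak thresholds could not be tried, because the lists carry no scores, and how many weak peaks each list misses was not tested, since depth is unknown.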

Other observations

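Long stretches with no peak of any list took up little of either arm. Stretches of at least 100 kb made up 10.9% of the long arm (25 stretches) and 16.3% of the short arm (21 stretches), ranks 3 and 5 from the lowest of 39 arms, and the 37 other arms had a median of 28.9%. The longest lay on the short arm from 6810126 to 7497206 (687 kb). A single narrow peak separated it from the next, 7497450 to 7859019 (362 kb), and both reach into the window that was lowest in both marks. On the long arm the longest, 29633295 to 30102140 (469 kb), lay next to the centromeric gap, and the next measured 166 kb.

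The median gap between neighbouring H3K27ac regions was shorter on the long arm, but close neighbours were not more frequent there. The median gap was 16.1 kb on the long arm, against 18.3 kb on the short arm and 18.4 kb on other autosomes. The lower quartile was 4.51 kb on the long arm, against 4.03 kb on the short arm and 4.09 kb on other autosomes, and gaps of at most 5 kb made up 26.7% on the long arm, against 28.9% on the short arm and 27.3% on other autosomes. For H3K4me1 the medians were 8.82 kb on the long arm and 8.78 kb on the short arm, against 9.82 kb on other autosomes.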
